A study of Mus musculus with 8 samples.

Results

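The 9 genes described here make, bind, clear or respond to retinoic acid in the mouse small intestine. They are Rdh10, Aldh1a1, Aldh1a2, Aldh1a3, Crabp1, Crabp2, Cyp26a1, Cyp26b1 and Rarb, chosen by symbol for their place in the pathway, and each was found once among the 55681 genes of the deposited table. RNA of the whole small intestine at E15.5 was sequenced from 4 embryos labelled cKO and 4 labelled Ctrl, 1 intestine per library, on a C57BL6J background. The cKO embryos were Slmap fl/fl and carried a Dermo-Cre transgene (spelled Derom-Cre in the genotype label), while the Ctrl embryos were Slmap fl/fl and their labels name no Cre. Slmap encodes a membrane-anchored component of STRIPAK, a complex built around a phosphatase. Dermo1, now named Twist2, is expressed in mesenchyme, so the driver aims the deletion at mesenchyme, while the libraries hold RNA of every layer of the gut. The series design sets the comparison to the shortened gut that follows the deletion, and the question here is how the retinoic acid genes stood in the libraries labelled cKO.

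Retinoic acid is made from vitamin A in 2 oxidation steps. Rdh10 is the main embryonic enzyme of the first, from retinol to retinal, and the retinal dehydrogenases of the Aldh1a family carry out the second. CRABP proteins carry retinoic acid inside the cell, CYP26 enzymes oxidise it for removal, and the receptors RAR and RXR bind DNA as pairs and switch on target genes, Rarb and Cyp26a1 among them. In the embryonic gut Aldh1a2 is known from mesenchyme and from mesothelium, the outer lining.

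Rarb and Cyp26a1 are the classical targets of the pathway, and their promoters are shown because they carry the DNA element through which the receptors act. RefSeq promoter windows (GRCm38.p6, from 250 bases before to 50 after the start) were found for 6 of the 9 genes. Aldh1a3, Crabp2 and Rdh10 had no entry. A direct repeat of 2 half-sites with 5 bases between them was searched on both strands. The half-sites allowed were AGGTCA and its relative AGTTCA, together with GGGTCA and its relative GGTTCA. The repeat was found once in Rarb (minus strand, chr14:16575427-16575726) and once in Cyp26a1 (plus strand, chr19:37697558-37697857). Of all 32851 promoter windows 32 held it, a share of 0.0974%. Both genes are shown because they carry the element, and the half-sites allowed include theirs. The share therefore describes how common the pattern is and is no test of these genes. The capitals in both windows mark the half-sites, and in Cyp26a1 the repeat runs on the opposite strand to the gene.
Rarb promoter: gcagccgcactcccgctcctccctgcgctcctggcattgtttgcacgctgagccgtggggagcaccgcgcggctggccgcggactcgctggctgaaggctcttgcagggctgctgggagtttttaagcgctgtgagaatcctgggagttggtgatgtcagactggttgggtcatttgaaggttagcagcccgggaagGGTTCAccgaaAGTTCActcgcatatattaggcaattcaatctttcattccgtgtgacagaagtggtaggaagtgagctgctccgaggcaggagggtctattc
Cyp26a1 promoter: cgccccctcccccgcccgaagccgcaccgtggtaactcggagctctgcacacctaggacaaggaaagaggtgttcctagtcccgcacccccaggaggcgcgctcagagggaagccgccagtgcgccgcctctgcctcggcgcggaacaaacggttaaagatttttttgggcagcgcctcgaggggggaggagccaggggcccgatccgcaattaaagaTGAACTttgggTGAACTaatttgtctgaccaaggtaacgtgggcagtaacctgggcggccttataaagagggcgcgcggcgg
Read 5′ to 3′ along the repeat itself, the elements differed in the first half-site and in the spacer.
Rarb repeat: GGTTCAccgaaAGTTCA
Cyp26a1 repeat: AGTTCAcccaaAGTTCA
The Rarb repeat lay at -53 to -37 from the start and the Cyp26a1 repeat at -32 to -16. The windows of Aldh1a1 (2 starts), Aldh1a2, Crabp1 and Cyp26b1 held no such repeat with a spacer of 1, 2 or 5 bases; spacers of 1 and 2 bases occurred in 0.222% and 0.268% of all windows. A match describes the letters and shows neither binding nor activity in these embryos.

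Reads recovered from the deposited FPKM (fragments scaled by gene length and library total) summed to 15663837 to 17806397 per library. Ctrl 3 and Ctrl 4 stood apart, with 25832 and 25934 genes with at least 1 read against 23883 to 24071 in the other 6 libraries, and array quality weights counted cKO 2 least, at 0.329. Slmap itself had 25.5, 23.5, 26.5 and 26.3 FPKM in cKO 1 to 4, against 23.6, 23.3, 25.4 and 24.2 FPKM in Ctrl 1 to 4, so the libraries labelled cKO did not show less of it (log2 fold change 0.07 ± 0.07, adjusted p = 0.570 by limma; exact 2-sided permutation p = 0.143). The sources used here do not name the floxed exon, and directions follow the labels of the libraries. Intestinal epithelial markers were high in all libraries (Epcam 268.6 to 393.1 FPKM), and Hoxa13, Hoxb13 and Hoxd13, genes of the hindgut, were listed at 0 in all 8. Pancreatic enzyme genes were present too, with Ctrb1 at 105.3 to 544.1 FPKM in cKO and 262.6 to 535.5 FPKM in Ctrl, and their part in the results was not tested.

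The genes that make retinoic acid were the highest of the 9. Over the 8 libraries Aldh1a2 averaged 41.8 FPKM, Aldh1a1 34.2, Rdh10 19.2 and Aldh1a3 10.2 FPKM. The genes that clear or bind retinoic acid were low, with Cyp26b1 at 1.65 FPKM, Crabp1 at 1.13, Crabp2 at 0.504 and Cyp26a1 at 0.167 FPKM, and the receptor gene Rarb averaged 0.979 FPKM. Aldh1a2 stood in the 92.0th percentile and Crabp1 in the 2.50th percentile by mean level of the 14220 genes that averaged at least 1 FPKM, the set that was tested. In Ctrl the 3 Aldh1a genes and Rdh10 did not overlap in level, in the order Aldh1a2, Aldh1a1, Rdh10 and Aldh1a3. In cKO the ranges of Aldh1a2 (30.8 to 51.3 FPKM) and Aldh1a1 (32.6 to 41.6 FPKM) overlapped, as did those of Crabp1, Cyp26b1 and Rarb.

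None of the 9 genes passed the threshold of an adjusted p of 0.05. With limma, 0 of the 6 tested members were called and 0 reached an unadjusted p of 0.05, and limma-voom on the recovered reads gave 0 and 0. Of all tested genes 2 were called by limma (0.0141%). At an unadjusted limma p under 0.05, 9.87% of all tested genes were lower and 12.6% higher in cKO. Limma-voom called 0 of the 14220 tested genes, with 1381 lower and 1822 higher at an unadjusted p under 0.05. Of the 9, 6 had a log2 fold change below 0 and 3 above it. The median over the 6 tested members was -0.12, against -0.00 (-0.0016) over all tested genes. In 0 of the 6 did the values of the groups separate without overlap, where 15.4% of all tested genes did (5.75% lower and 9.61% higher in cKO). In bulk tissue, fewer cells of a type and less RNA per cell cannot be told apart.

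**Figure D1:**
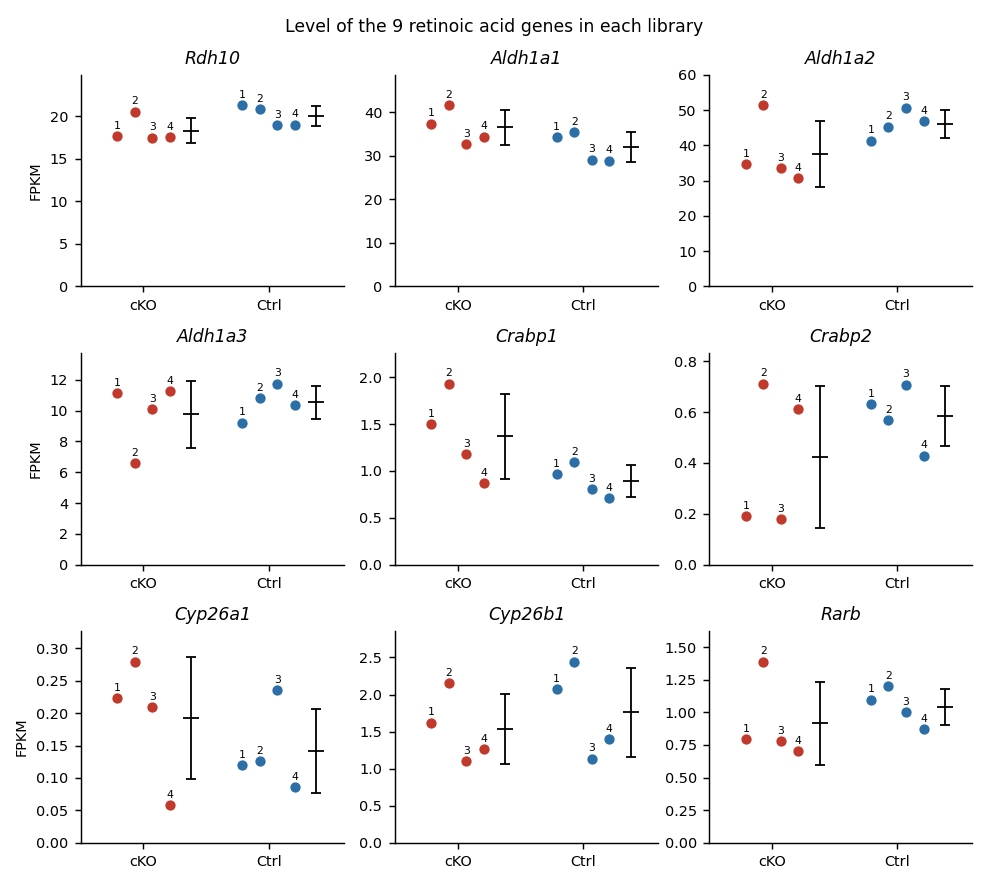
Level of each of the 9 genes in FPKM (y axis from 0) in the 4 libraries labelled cKO (red, left) and the 4 labelled Ctrl (blue, right); numbers are the label numbers, and bars give the mean and SD of each group. The groups overlap in every panel, and cKO 2 is the highest library for Aldh1a1, Aldh1a2, Crabp1, Crabp2, Cyp26a1 and Rarb and the lowest for Aldh1a3.

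Rdh10 (chromosome 1, 16175998 to 16203958, plus strand; all gene positions on GRCm39 as in the deposited table) had 17.7, 20.5, 17.5 and 17.6 FPKM in cKO 1 to 4, against 21.3, 20.8, 19.0 and 19.0 FPKM in Ctrl 1 to 4. Without cKO 2, all libraries labelled cKO lay below all controls, and cKO 2 alone made the groups overlap. How many of all tested genes separate once cKO 2 is left out was not counted, here or for Aldh1a2 and Rarb below. The means were 18.3 ± 1.48 FPKM in cKO and 20.03 ± 1.21 FPKM in Ctrl (SD, n = 4 each), on 1161 to 1543 reads per library in cKO and 1349 to 1487 in Ctrl. The log2 fold change was -0.12 ± 0.08 (SE; adjusted p = 0.398 by limma), with a 95% interval of the fold from 0.809 to 1.04. Leaving out cKO 2 gave -0.18 ± 0.07 (adjusted p = 0.136 by limma). The intervals of Rdh10 were the narrowest among the 6 tested members.

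Aldh1a2, the retinal dehydrogenase that supplies most retinoic acid in the early embryo, lies on chromosome 9 (71123071 to 71203525, plus strand). It had 34.6, 51.3, 33.6 and 30.8 FPKM in cKO 1 to 4, against 41.3, 45.3, 50.7 and 46.8 FPKM in Ctrl 1 to 4. The values in cKO 1, 3 and 4 were lower than those of all 4 controls, while cKO 2 was higher than all of them. The means were 37.6 ± 9.30 FPKM in cKO and 46.02 ± 3.86 FPKM in Ctrl (SD, n = 4 each), on 1205 to 2098 reads per library in cKO and 1571 to 1962 in Ctrl. The log2 fold change was -0.31 ± 0.15 (SE; adjusted p = 0.271 by limma), with a 95% interval of 0.634 to 1.03 for the fold. With cKO 2 left out, Aldh1a2 averaged 33.0 ± 1.99 FPKM in cKO (SD, n = 3) and was called lower, with a log2 fold change of -0.46 ± 0.09 (adjusted p = 0.0265 by limma). It was then the 1 member called of the 6 tested, in a fit that called 9.72% of all tested genes (4.15% lower and 5.57% higher in cKO). It was also the 1 member called with array quality weights (-0.40 ± 0.11, adjusted p = 0.0389 by limma), where 2209 of the 14220 tested genes were called. The call without cKO 2 ended when a correction for GC content and gene length was added (-0.45 ± 0.09, adjusted p = 0.0675 by limma).

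Mesothelial markers had lower group means in cKO, beside Aldh1a2, and none was called. This held for all 9 listed markers, and their summed level was 223.6 to 252.3 FPKM in cKO against 250.03 to 308.3 FPKM in Ctrl. Krt19 and Podxl, which other gut cells also express, made up most of that sum. The sum of the other 7, a choice made after the values were seen, was 31.8 to 37.3 FPKM in cKO and 45.97 to 77.4 FPKM in Ctrl. Upk3b, a uroplakin gene of mesothelium, had 18.0, 17.9, 19.3 and 17.6 FPKM in cKO 1 to 4, against 22.3, 22.3, 34.2 and 33.5 FPKM in Ctrl 1 to 4. In cKO 2 the 7 markers summed to 37.3 FPKM, below every control, whereas Aldh1a2 there was above every control. The summed level of 8 gut fibroblast and mesenchyme markers was 481.9 to 835.4 FPKM in cKO and 541.4 to 951.7 FPKM in Ctrl. The 6 smooth muscle markers summed to 1170, 1471, 1080 and 1081 FPKM in cKO 1 to 4, against 1568, 1725, 1204 and 1240 FPKM in Ctrl 1 to 4. The 7 epithelial markers summed to 1192, 910.1, 1244 and 1244 FPKM in cKO 1 to 4, against 1132, 1096, 835.7 and 956.2 FPKM in Ctrl 1 to 4. With cKO 2 left out, as in the fit that called Aldh1a2, the smooth muscle sums lay below and the epithelial sums above those of all controls. The part of mesothelial, other mesenchymal, smooth muscle or epithelial RNA in the Aldh1a2 values was not tested.

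Aldh1a1, a retinal dehydrogenase that also acts on other aldehydes (chromosome 19, 20470079 to 20620829, plus strand), had the opposite sign to Aldh1a2, also without a call. It had 37.4, 41.6, 32.6 and 34.4 FPKM in cKO 1 to 4, against 34.3, 35.5, 29.2 and 28.9 FPKM in Ctrl 1 to 4. The groups overlapped, and libraries numbered 1 and 2 were higher than those numbered 3 and 4 in both. The means were 36.5 ± 3.93 FPKM in cKO and 31.95 ± 3.43 FPKM in Ctrl (SD, n = 4 each), on 2716 to 3709 reads per library in cKO and 2461 to 2839 in Ctrl. The log2 fold change was 0.19 ± 0.11 (SE; adjusted p = 0.329 by limma; 95% interval of the fold 0.964 to 1.35). It was 0.06 ± 0.11 without Ctrl 3 and Ctrl 4, 0.09 ± 0.11 after the GC and length correction and 0.08 ± 0.09 with array quality weights (adjusted p = 0.755, 0.760 and 0.586 by limma). With a term for numbers 1 and 2 against 3 and 4 it stayed at 0.19 with a smaller error of 0.06 (unadjusted p = 0.0173, adjusted p = 0.0947 by limma; 95% interval of the fold 1.03 to 1.26). In that fit 2282 of the 14220 tested genes were higher and 2047 lower in cKO at an unadjusted limma p under 0.05.

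Aldh1a3, the third retinal dehydrogenase (chromosome 7, 66040638 to 66077265, minus strand), had 11.1, 6.59, 10.1 and 11.3 FPKM in cKO 1 to 4, against 9.23, 10.8, 11.8 and 10.3 FPKM in Ctrl 1 to 4. The low mean of cKO rested on cKO 2, and cKO 1, 3 and 4 lay within the range of the controls. The means were 9.77 ± 2.19 FPKM in cKO and 10.5 ± 1.06 FPKM in Ctrl (SD, n = 4 each), and the log2 fold change was -0.12 ± 0.16 (SE; adjusted p = 0.686 by limma). The 95% interval of the fold was 0.719 to 1.18. Without cKO 2 the log2 fold change was 0.04 ± 0.09 (adjusted p = 0.817 by limma).

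Added together, the 3 Aldh1a genes reached 83.2, 99.5, 76.3 and 76.5 FPKM in cKO 1 to 4, against 84.8, 91.6, 91.6 and 86.0 FPKM in Ctrl 1 to 4. The sums overlapped between the groups through cKO 2. The share of Aldh1a1 in the sum, which no scaling between libraries can change, was 44.95%, 41.8%, 42.7% and 45.02% in cKO 1 to 4, against 40.4%, 38.8%, 31.8% and 33.6% in Ctrl 1 to 4. These shares did not overlap between the groups, cKO 2 included, and averaged 43.6% ± 1.61 in cKO and 36.1% ± 4.09 in Ctrl (SD, n = 4 each). The nearest values were cKO 2 at 41.8% and Ctrl 1 at 40.4%. The lowest shares were those of Ctrl 3 and Ctrl 4, which also stood apart in the number of genes with a read. This measure was chosen after the values were seen and is given without a test. How often such shares separate the groups for other genes was not counted, while the levels of 15.4% of all tested genes did. The GC content was 46.1% for Aldh1a1 and 50.6% for Aldh1a2, and its part in the shares was not tested. The share of Aldh1a2 did overlap, at 40.3% to 51.6% in cKO and 48.7% to 55.3% in Ctrl.

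**Figure D2:**
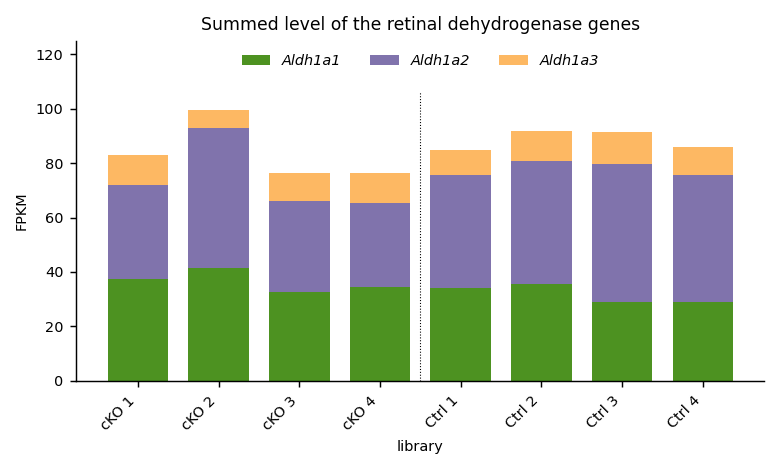
Stacked FPKM (y axis from 0) of Aldh1a1 (bottom), Aldh1a2 (middle) and Aldh1a3 (top) in each library, cKO 1 to 4 left and Ctrl 1 to 4 right of the dotted line. The sum runs from 76.3 to 99.5 FPKM in cKO and from 84.8 to 91.6 FPKM in Ctrl, and Aldh1a1 makes up 41.8% to 45.02% of it in cKO against 31.8% to 40.4% in Ctrl.

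Crabp1, a cytoplasmic carrier of retinoic acid (chromosome 9, 54672032 to 54680394, plus strand), had 1.4995, 1.93, 1.18 and 0.866 FPKM in cKO 1 to 4, against 0.966, 1.09, 0.802 and 0.707 FPKM in Ctrl 1 to 4. In cKO 1, 2 and 3 it was above every control, while cKO 4 lay among them. These values rest on 12 to 28 reads in cKO and 10 to 14 reads in Ctrl, so counting error is large. The log2 fold change was 0.31 ± 0.16 (SE; adjusted p = 0.283 by limma; 95% interval of the fold 0.967 to 1.59). On the recovered reads, where the pseudocount does not shrink it, limma-voom gave 0.57 ± 0.36 (adjusted p = 0.377), and the GC and length correction 0.53 ± 0.15 (adjusted p = 0.349 by limma). The term for numbers gave 0.31 ± 0.11 (unadjusted p = 0.0266, adjusted p = 0.117 by limma). At an unadjusted limma p under 0.05, that fit had 2282 of the 14220 tested genes higher and 2047 lower in cKO.

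Crabp2, the carrier that hands retinoic acid to its receptors (chromosome 3, 87855973 to 87860683, plus strand), had 0.192, 0.712, 0.179 and 0.613 FPKM in cKO 1 to 4, against 0.631, 0.568, 0.708 and 0.429 FPKM in Ctrl 1 to 4. In reads these were 4, 17, 4 and 14 in cKO and 14, 12, 16 and 10 in Ctrl. The libraries labelled cKO fell on both sides of the controls, cKO 1 and 3 below and cKO 2 above. Crabp2 averaged under 1 FPKM and was fitted with every gene that had a read, which gave a log2 fold change of -0.17 ± 0.14 (SE; adjusted p = 0.694 by limma). At this level the pseudocount of 1 shrinks both the difference and its error. The value was -0.54 ± 0.42 with a pseudocount of 0.1 (adjusted p = 0.690 by limma) and -0.64 ± 0.50 on the recovered reads (adjusted p = 0.668 by limma-voom). Permuting the group labels in all 70 ways gave an exact 2-sided p of 0.343, where the smallest possible is 0.0286.

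Cyp26b1, a CYP26 gene known from embryonic mesenchyme (chromosome 6, 84548396 to 84570890, minus strand), had 1.62, 2.15, 1.10 and 1.27 FPKM in cKO 1 to 4, against 2.07, 2.44, 1.14 and 1.40 FPKM in Ctrl 1 to 4. In both groups the libraries numbered 1 and 2 lay above those numbered 3 and 4, a spread wider than the difference between the groups. The means were 1.53 ± 0.467 FPKM in cKO and 1.76 ± 0.601 FPKM in Ctrl (SD, n = 4 each), and the log2 fold change was -0.12 ± 0.19 (SE; adjusted p = 0.757 by limma; 95% interval of the fold 0.686 to 1.24). With a term for numbers 1 and 2 against 3 and 4, the log2 fold change was -0.12 ± 0.10 (adjusted p = 0.479 by limma), in a fit that called 7.73% of all tested genes and 0 of the members. Without Ctrl 3 and Ctrl 4 it was -0.38 ± 0.18 (adjusted p = 0.242 by limma), and 0.03 ± 0.16 once GC content and length were corrected for (adjusted p = 0.959 by limma).

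Cyp26a1, which clears retinoic acid and is itself switched on by it (chromosome 19, 37686246 to 37689984, plus strand), was close to the limit of detection. It had 0.223, 0.279, 0.209 and 0.0584 FPKM in cKO 1 to 4, against 0.120, 0.126, 0.236 and 0.0857 FPKM in Ctrl 1 to 4. These were 7, 10, 7 and 2 reads in cKO and 4, 4, 8 and 3 reads in Ctrl. No difference was detectable at this depth (exact 2-sided permutation p = 0.429; log2 fold change 0.06 ± 0.07, adjusted p = 0.728 by limma in the fit of all genes with a read). The small error reflects the pseudocount of 1. The value was 0.24 ± 0.36 with a pseudocount of 0.1 (adjusted p = 0.799 by limma) and 0.31 ± 0.59 on the recovered reads (adjusted p = 0.822 by limma-voom), with a 95% interval of the fold from 0.513 to 3.01.

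Rarb, a receptor gene known to be switched on by its own ligand (chromosome 14, 5650540 to 6038924, plus strand on GRCm39), had 0.793, 1.39, 0.777 and 0.703 FPKM in cKO 1 to 4, against 1.10, 1.1999, 0.9997 and 0.872 FPKM in Ctrl 1 to 4. As for Aldh1a2, cKO 1, 3 and 4 lay below every control and cKO 2 above every control. On 64 to 132 reads in cKO and 81 to 101 in Ctrl, the log2 fold change was -0.10 ± 0.14 (SE; adjusted p = 0.769 by limma; exact 2-sided permutation p = 0.429). The 95% interval of the fold was 0.750 to 1.16. On the recovered reads limma-voom gave -0.22 ± 0.24 (adjusted p = 0.721). Without cKO 2 the log2 fold change was -0.21 ± 0.09 (adjusted p = 0.341 by limma). For Cyp26a1, the other gene with the repeat, cKO 1 and 3 lay above Ctrl 1, 2 and 4. Those values rest on 2 to 10 reads in cKO and 3 to 8 in Ctrl, too few to compare the order of libraries.

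**Figure D3:**
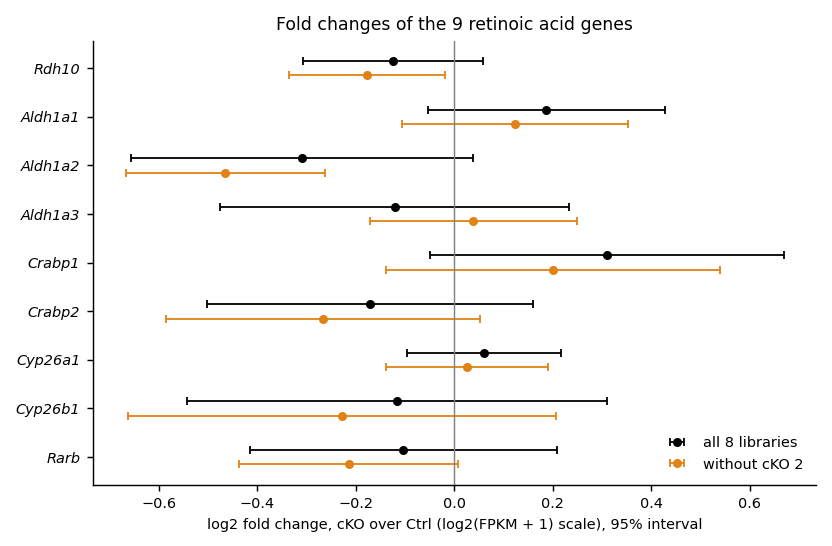
Log2 fold change of each member, cKO over Ctrl, on the log2(FPKM + 1) scale with its 95% interval, from all 8 libraries (black) and without cKO 2 (orange). With all libraries every interval includes 0. Without cKO 2 those of Aldh1a2 and Rdh10 do not, and only Aldh1a2 passes after adjustment over all tested genes. Without cKO 2, 2273 of the 14220 tested genes were higher and 1820 lower in cKO at an unadjusted limma p under 0.05.

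The library cKO 2 stood apart from the other 3 of its group across the members. It was the highest of all 8 libraries for 6 of the 9 genes and the lowest for Aldh1a3. Of the other libraries, cKO 3 was lowest for 3 members (Rdh10, Crabp2 and Cyp26b1) and cKO 4 for 3 (Aldh1a2, Cyp26a1 and Rarb). After each group's mean was removed, the deviations of Aldh1a1 and Cyp26b1 over the 8 libraries correlated at r = 0.976, and those of Rdh10 and Aldh1a1 at r = 0.903. Aldh1a3 ran against the other tested members, from r = -0.863 with Rdh10 to r = -0.599 with Cyp26b1. These coefficients describe 8 libraries, share the library effects of cKO 2 and of the numbers 1 and 2 against 3 and 4, and carry no test.

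**Figure D4:**
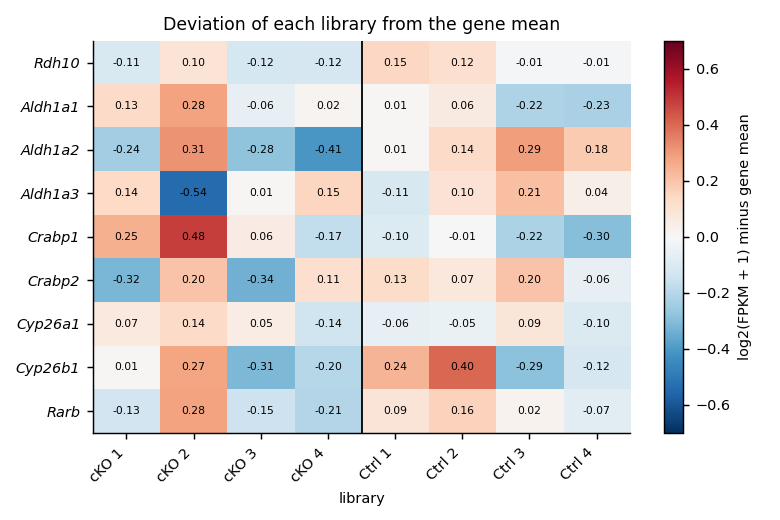
Deviation of each library from the mean of the gene over all 8 libraries, as log2(FPKM + 1), for the 9 members (rows), with cKO 1 to 4 left and Ctrl 1 to 4 right of the line. Red is above and blue below the mean; the column of cKO 2 is red for 8 members and blue for Aldh1a3.

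By the same measure, the protein-coding genes most like each tested member among 12267 were Mex3a, Arnt2 and Cgnl1 for Rdh10 (r = 0.990 to 0.999) and Dpy19l1, Syt11 and Cd248 for Aldh1a1 (r = 0.993 to 0.997). For Aldh1a2 they were Lsp1, Pkia and Rps3 (r = 0.985 to 0.992), and for Aldh1a3 Iqgap2, St3gal1 and Slc30a5 (r = 0.985 to 0.992). For Cyp26b1 they were Pspc1, Fgf13 and Rtl8a (r = 0.989 to 0.995), and those of Crabp1 included Cst3 and Prr36 (r = 0.977 and 0.976). These are among the highest of 12267 coefficients over 8 libraries and carry no test.

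The rest of the pathway was read from a list of 53 genes, of which 52 were in the table and 37 averaged at least 1 FPKM. With limma 0 of the 37 were called in either direction, and limma-voom called 0. At an unadjusted p under 0.05, 4 were lower in cKO (10.8%, where 9.87% of all tested genes were) and 1 was higher (2.70%, where 12.6% of all tested genes were). The groups did not overlap for 3 of the 37 (8.11%), against 15.4% of all tested genes. The median log2 fold change was -0.03.

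The 4 lower genes at an unadjusted p under 0.05 were Rarres2, Dhrs3, Rxrb and Hic1. Rarres2, which encodes the secreted chemoattractant chemerin, had 5.05, 6.28, 6.09 and 4.53 FPKM in cKO 1 to 4, against 7.49, 8.55, 10.3 and 10.9 FPKM in Ctrl 1 to 4. All 4 libraries labelled cKO were below all controls, with a log2 fold change of -0.67 ± 0.13 (SE; adjusted p = 0.0758 by limma). The GC and length correction gave -0.65 (adjusted p = 0.281 by limma). Dhrs3, the enzyme that turns retinal back to retinol and is known to be induced by retinoic acid, had 11.4, 11.5, 12.4 and 10.95 FPKM in cKO 1 to 4, against 12.9, 14.0, 13.8 and 16.4 FPKM in Ctrl 1 to 4. It too did not overlap, with a log2 fold change of -0.28 ± 0.09 (SE; adjusted p = 0.114 by limma). With the GC and length correction Dhrs3 stood at -0.21 (adjusted p = 0.412 by limma). Hic1, a transcriptional repressor gene of mesenchyme, averaged 16.9 ± 5.47 FPKM in cKO and 26.0 ± 7.30 FPKM in Ctrl (SD, n = 4 each; log2 fold change -0.60 ± 0.24, adjusted p = 0.187 by limma). After the GC and length correction Hic1 stood at -0.33 (adjusted p = 0.468 by limma).

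Of the receptors, all 4 that were tested had a log2 fold change below 0, and none was called. Rxrb averaged 11.2 ± 0.977 FPKM in cKO and 13.6 ± 1.49 FPKM in Ctrl (SD, n = 4 each), and the log2 fold change was -0.25 ± 0.10 (SE; adjusted p = 0.171 by limma). After the GC and length correction it was -0.02 (adjusted p = 0.906 by limma). Rara averaged 9.35 ± 0.897 FPKM in cKO and 10.9 ± 2.10 FPKM in Ctrl, Rarg 4.18 ± 0.681 FPKM in cKO and 4.55 ± 1.15 FPKM in Ctrl, and Rxra 21.2 ± 1.94 FPKM in cKO and 21.8 ± 3.92 FPKM in Ctrl (SD, n = 4 each). Their log2 fold changes were -0.19, -0.09 and -0.03, and 0.00, 0.10 and 0.12 after the correction, so their sign depended on it. Rarb was the lowest in level of the RAR genes, and Rxrg was lower still at 0.0764 to 0.276 FPKM over all 8 libraries.

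On the higher side, Nrip1, a corepressor gene of nuclear receptors, had 7.14, 6.11, 7.89 and 7.91 FPKM in cKO 1 to 4, against 5.92, 5.55, 6.03 and 5.59 FPKM in Ctrl 1 to 4, without overlap (log2 fold change 0.28 ± 0.09, SE, adjusted p = 0.118 by limma). After the GC and length correction it stood at 0.13 (adjusted p = 0.473 by limma). Isx, an intestinal transcription factor gene that retinoic acid induces and that holds back vitamin A uptake, averaged 53.9 ± 8.53 FPKM in cKO and 45.4 ± 4.12 FPKM in Ctrl (SD, n = 4 each). Its log2 fold change was 0.23 ± 0.13 (SE; adjusted p = 0.319 by limma). Ttr and Adh5, next in order of p, had log2 fold changes of 0.21 and 0.13 (adjusted p = 0.336 and 0.377 by limma). Rbp4, the plasma retinol carrier, averaged 5.07 ± 1.29 FPKM in cKO and 4.02 ± 1.26 FPKM in Ctrl, and Stra6, the receptor for that carrier, 0.711 ± 0.342 FPKM in cKO and 0.621 ± 0.108 FPKM in Ctrl (SD, n = 4 each).

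Lrat and Rbp2, which hold retinol in cells, varied more between libraries than between groups. Lrat, which esterifies retinol for storage, had 10.95, 2.51, 9.47 and 9.56 FPKM in cKO 1 to 4, against 6.96, 6.72, 13.3 and 12.2 FPKM in Ctrl 1 to 4. Rbp2, the retinol carrier of absorptive enterocytes, and named here after its values were seen, had 209.0, 20.2, 182.4 and 180.9 FPKM in cKO 1 to 4, against 129.8, 143.4, 350.8 and 277.1 FPKM in Ctrl 1 to 4. For both, cKO 2 was the lowest of the 8 libraries.

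Without cKO 2, 4 of the 37 listed genes were called (10.8%, where 9.72% of all tested genes were). They included Meis2 at -0.32, Rarres2 at -0.72 and Nrip1 at 0.35 on the log2 scale (adjusted p = 0.0386, 0.0280 and 0.0276 by limma). Meis2, a homeobox gene that responds to retinoic acid, averaged 7.05 ± 2.035 FPKM in cKO and 7.78 ± 0.187 FPKM in Ctrl with all libraries (SD, n = 4 each).

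**Figure D5:**
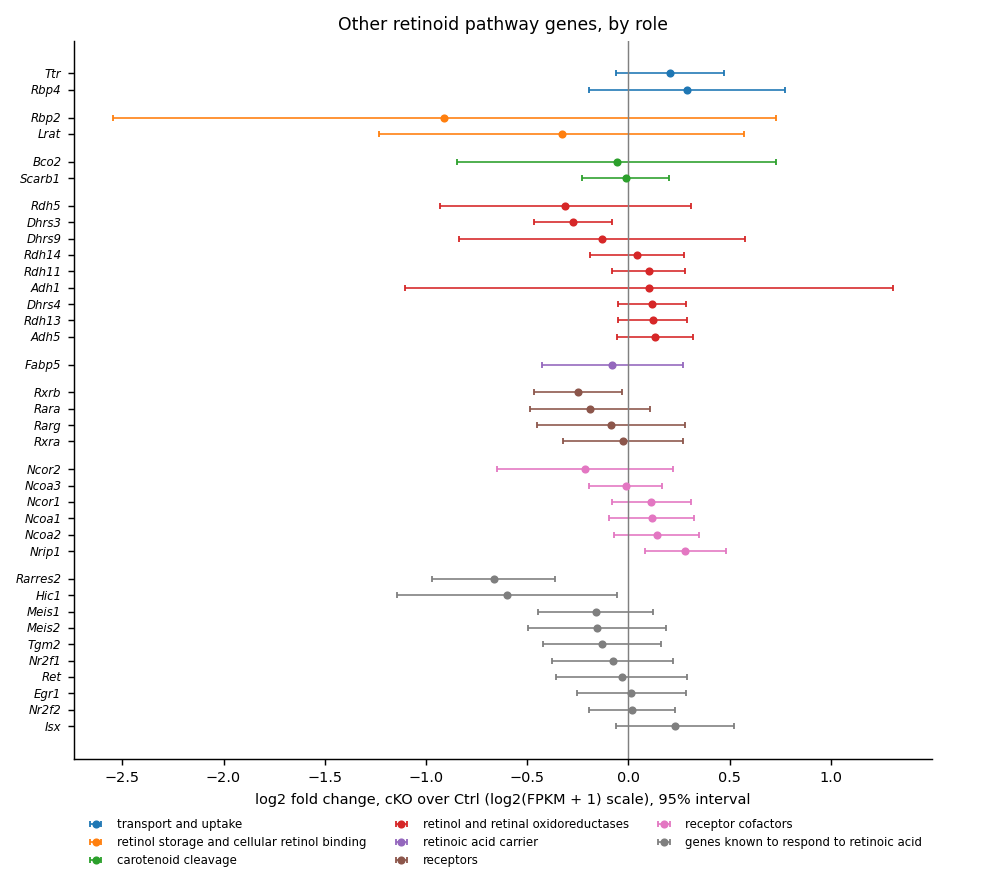
Log2 fold change, cKO over Ctrl, on the log2(FPKM + 1) scale with its 95% interval for tested genes of the wider retinoid list, grouped and coloured by role. Intervals of Rarres2, Dhrs3, Rxrb and Hic1 lie below 0 and that of Nrip1 above 0 before adjustment for the number of genes; Rbp2, Lrat and Adh1 have the widest intervals.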

How the data were processed

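TRIzol RNA was made into NEBNext Ultra libraries, per the labels' protocols. Tools listed in the submitters' processing notes, with no role or order, are HISAT2, featureCounts, fastp, CASAVA and DESeq2 (1.20.0), and the build is GRCm39; strandedness and settings were not found in these sources. The authors deposited FPKM values for 55681 genes in 8 libraries (3 blank lines were left out). FPKM times gene length gave whole multiples of 1 step per library (100% of values above 0, tolerance 0.01), taken as reads; the totals implied by the authors' FPKM were 0.969 to 1.09 times those sums, which sets an additional scaling of each library.

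The test was limma 3.58.1 (R 4.3.3) on log2(FPKM + 1), trended, 2-sided, over the 14220 genes averaging at least 1 FPKM, with Benjamini-Hochberg adjustment over all of them and a threshold of 0.05. This scale understates fold changes of low genes. Members under the filter (Rarb, Crabp2, Cyp26a1) were fitted with the 31853 genes that had a read and tested by exact permutation (SciPy 1.17.1). The scripts were tested on simulated data. GC content came from the longest GENCODE M21 transcript (93.5% of genes matched by identifier). No library pair was a duplicate (lowest chi-square per degree of freedom 5.59). The labels name no litter or batch, so p-values and intervals, those of limma-voom included, cover only variation among the embryos sampled, with its counting error.

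The members, the wider list, the named-gene rule and the alternatives were chosen with earlier results of these data known. Named were all members, Slmap, listed genes past the threshold, the 4 of smallest p in each direction, and fixed genes by role; Rbp2, Adh1, Meis2, Rbp7, Tbx1, Ctrb1 and the comparison of Aldh1a shares were chosen after values were seen. Alternatives were pseudocount, filter, scaling, weights, block by label number, libraries left out, terms for number and sex, a GC and length correction, and limma-voom. The labels name no sex, and the term for sex was set by Xist above 10 FPKM. This held for cKO 1, cKO 2, cKO 3, Ctrl 2 and Ctrl 4, so the groups were not balanced for it. The GC correction without cKO 2 was added after the data were seen. Some items named by these rules are not reported here.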

Additional observations from a re-analysis of the deposited data

Results flagged for a closer look

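Of 66 groups of 4 libraries examined, 6 had a library farther from the others than the 95% limit for 4 values. Chance flags about 1 in 20 of independent groups. These groups share libraries, and Rbp2, Adh1 and Meis2 were named after values were seen, so the count cannot be set against that rate. In 5 of the 6 flagged groups the library was cKO 2. Rdh10 stood at 20.5 FPKM in cKO 2, with the next library labelled cKO at 17.7 FPKM. Rarb stood there at 1.39 FPKM, with the next at 0.793 FPKM, and Hic1 at 25.0 FPKM, with the next at 14.8 FPKM. On the low side, Rbp2 stood at 20.2 FPKM in cKO 2 with the next library at 180.9 FPKM, and Adh1, an alcohol dehydrogenase that acts on retinol, at 31.4 FPKM with the next at 142.5 FPKM. The other was Rxrg, at 0.218 FPKM in Ctrl 2 with the next control at 0.0987 FPKM.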

How the results depend on the processing

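No member passed the threshold in any alternative except Aldh1a2, which was called lower without cKO 2 (log2 fold change -0.46, limma adjusted p = 0.0265) and with array quality weights (-0.40, adjusted p = 0.0389). Over its 21 alternatives the log2 fold change of Aldh1a2 lay between -0.46 and -0.23 (adjusted p 0.0265 to 0.513). Rdh10, Aldh1a1, Crabp1, Crabp2, Cyp26a1 and Rarb kept their sign in all 21. Aldh1a3 ranged from -0.192 to 0.0386 with 1 library left out, the highest without cKO 2, and turned to 0.0152 with array quality weights and 0.0153 with the GC and length correction without cKO 2, and Cyp26b1 to 0.0283 with the GC and length correction. Slmap turned to -0.0303 with that correction and to -0.00736 with it and without cKO 2. The causes were not tested.

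Of all tested genes limma called 2. It called 0 with a pseudocount of 0.1, no filter, the replicate block or the term for sex, as did limma-voom; at an unadjusted p under 0.05 these 5 gave 1551 to 1994 genes higher and 1234 to 1981 lower. It called 1 with a filter of 0.1 FPKM, 31 with median-ratio scaling, 28 with scaling by summed reads, 2209 with array quality weights, 1099 with the term for numbers, 4 with the GC and length correction, 99 with that correction without cKO 2, and 3 without Ctrl 3 and Ctrl 4. At an unadjusted p under 0.05, 1790 genes were higher and 1403 lower in cKO; scaling by summed reads gave 1184 higher and 2208 lower. Leaving out 1 library at a time gave 0 to 1382, the highest without cKO 2. Of the 37 listed genes 0 were called, against 4 with array quality weights, 2 with the term for numbers, 1 with the GC and length correction without cKO 2, and 0 to 4 with 1 library left out (4 without cKO 2). Under the replicate block Aldh1a2 stood at -0.31 (adjusted p = 0.246). The labels name no pairing of embryos by number. Correlations of deviations between same-numbered libraries were 0.0690, 0.326, 0.150 and 0.213. While cKO 2 correlated best with Ctrl 2, cKO 1, 3 and 4 each correlated better with a control of another number. Whether the numbers stand for a pairing was not tested. Crabp1, Crabp2 and Cyp26a1, at 2 to 28 reads, are limited by depth.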

Other observations

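Of the wider retinoid list, 15 genes in the table averaged under 1 FPKM. Stra8, a retinoic acid target of germ cells, and Rdh9 were listed at 0 in all 8 libraries. Cyp26c1, the third CYP26 gene, reached at most 0.0339 FPKM in cKO and 0.0716 FPKM in Ctrl. Rbp7, a cellular retinol carrier, had 0.176, 0.386, 0.330 and 0.403 FPKM in cKO 1 to 4, against 0.498, 0.697, 1.14 and 0.474 FPKM in Ctrl 1 to 4. These values rest on 2 to 5 reads in cKO and 6 to 14 in Ctrl, so counting error is large. The groups did not overlap for Rbp7, and it did not pass in the fit of all genes with a read (log2 fold change -0.35, limma adjusted p = 0.323). The share of genes under 1 FPKM without overlap was not counted. Tbx1, a T-box gene known to be lowered by retinoic acid in other embryonic tissues, averaged 0.130 ± 0.0419 FPKM in cKO and 0.221 ± 0.0732 FPKM in Ctrl (SD, n = 4 each; limma adjusted p = 0.452).

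Adh1, the alcohol dehydrogenase, had 142.5, 31.4, 161.8 and 153.2 FPKM in cKO 1 to 4, against 62.8, 73.1, 118.1 and 154.9 FPKM in Ctrl 1 to 4. With Rbp2 and Lrat it was lowest in cKO 2 among the 8 libraries, and in Ctrl all 3 were higher in the libraries numbered 3 and 4 than in those numbered 1 and 2. Vil1, an enterocyte brush border gene, stood at 68.4 FPKM in cKO 2 against 90.8 to 135.7 FPKM in the other 7 libraries. It is 1 of the 7 epithelial markers, whose sum was lowest in Ctrl 3 (835.7 FPKM) and next lowest in cKO 2 (910.1 FPKM). The part of these genes in the values of the 9 members was not tested.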
